A study of Mus musculus with 6 samples.

Results

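The genes described here encode the cell's protein folding and protein degradation machinery: molecular chaperones and their co-chaperones, the folding enzymes of the endoplasmic reticulum (ER), and the subunits of the proteasome. Members were chosen by gene symbol alone, from the families Psma to Psme and Psmg, Cct and Tcp1, the heat shock families Hspa, Hspb, Hspd, Hspe, Hsph and Hsp90, Dnaj, Pdia with P4hb, Calr and Canx, Pfdn, Fkbp and Bag. The interferon-induced subunits Psmb8, Psmb9 and Psmb10 were left out. The rule took 112 of the 10580 genes of the deposited table, and all 112 had a protein-coding entry in the mouse annotation.

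The study sorted fetal Leydig cells (FLCs) at E18.5 and adult Leydig cells (ALCs) at P100 from testes of mice that carry an Nr5a1-eGFP transgene, and sequenced 3 libraries of each stage. Embryos came from CD-1 females mated with heterozygous transgenic males, adult mice were heterozygous for the transgene, and no group received a treatment. Live single cells with strong eGFP were kept, so the cells were defined by the activity of Nr5a1 sequences, which also drive expression in Sertoli cells, and FLC samples were pooled from several purifications. Leydig cells are the steroid-producing cells of the testis interstitium. The values used here are 1 mean per gene over all 6 libraries of both stages, in counts normalised for library size, so no value below has a replicate error, a depth of its own or an n, and none says in which stage a gene was higher. The table lists genes past the threshold of a stage comparison, so family members outside it are not analysed here. In sorted bulk RNA, fewer cells of a type and less RNA per cell cannot be told apart.

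Chaperones bind unfolded proteins and release them in cycles of ATP hydrolysis. Hsp70 proteins are loaded by J-domain proteins (Dnaj) and emptied by exchange factors such as the Bag proteins, while chaperonins enclose a folding protein in a ring. Secreted and membrane proteins fold in the ER with the help of the Hsp70 protein Hspa5, the Hsp90 protein Hsp90b1, lectins such as Calr and disulfide isomerases of the Pdia family. Proteins marked with ubiquitin are unfolded by the 19S particle of the proteasome and cut inside its 20S core. In a steroid-producing cell much of this work lies at the ER and the mitochondria, where the steroidogenic enzymes reside.

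Several folding genes carry a known stress response sequence in their promoter and are shown here as the sequence feature that these members share. Promoter windows of 300 bases (250 before an annotated start and 50 from it) were taken from RefSeq on GRCm38.p6 for 96 of the 112 members. The ER stress element was searched on both strands as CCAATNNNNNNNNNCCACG, the sequence recognised in the unfolded protein response. It was found in the windows of 5 members, Hspa5, Calr, Hsp90b1, Pdia6 and Dnajc3, all of which encode ER proteins. That was 4.27% of the 117 member windows, against 0.119% of all 32851 windows of the genome. The elements are printed below in the direction of each gene's transcription with the match in capitals, so that CGTGG at the left end marks an element on the opposite strand.
Hspa5 (chr2:34772020-34772048, plus strand): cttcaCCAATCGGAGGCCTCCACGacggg
Calr (chr8:84847055-84847113, minus strand): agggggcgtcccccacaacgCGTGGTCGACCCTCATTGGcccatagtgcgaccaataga
Hsp90b1, distal (chr10:86705618-86705676, minus strand): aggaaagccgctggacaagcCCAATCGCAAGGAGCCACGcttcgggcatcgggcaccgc
Hsp90b1, proximal (chr10:86705513-86705571, minus strand): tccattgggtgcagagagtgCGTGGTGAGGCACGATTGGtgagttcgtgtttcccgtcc
Pdia6 (chr12:17266471-17266529, plus strand): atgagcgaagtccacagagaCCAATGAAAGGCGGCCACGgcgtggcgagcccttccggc
Dnajc3 (chr14:118937807-118937865, plus strand): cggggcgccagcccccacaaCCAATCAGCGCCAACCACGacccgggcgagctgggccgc

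Hsp90b1 was the member with a pair of these elements. The element nearest to a start was that of Hspa5, from base -65 to base -47, and the farthest was the distal element of Hsp90b1, from -212 to -194. In GENCODE no exon overlapped the printed stretches of Calr, Hsp90b1, Pdia6 and Dnajc3, while an exon of a longer Hspa5 transcript covered that of Hspa5. Every ER stress element holds a CCAAT box, so the search for CCAAT alone overlaps it: CCAAT was present in 43.6% of member windows and 37.4% of all windows.

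The heat shock element, the binding sequence of heat shock factors, was searched on both strands as GAANNTTCNNGAA or TTCNNGAANNTTC. It lay in 5.13% of member windows and 0.603% of all windows, and its owners were Hspd1, Hspe1, Dnajb6 and Hsph1. The share counts windows, 6 of 117 for the members, and not separate sites. The same Dnajb6 element and the same Hsph1 element were each counted in overlapping windows of different starts. Hspd1 and Hspe1 are the mitochondrial chaperonin and its lid, and they are transcribed away from each other from chromosome 1 with ends that overlap by 112 bases. A single stretch, made of overlapping matches, lay before the Hspe1 start and before an internal start of Hspd1. It was therefore counted for both genes, and an exon of Hspd1 covered it. The stretches are shown in the direction of transcription, Hspe1 standing for the pair.
Hspe1 and Hspd1 (chr1:55088053-55088082, plus strand): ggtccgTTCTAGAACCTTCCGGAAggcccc
Dnajb6 (chr5:29735844-29735872, plus strand): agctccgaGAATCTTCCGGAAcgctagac
Hsph1 (chr5:149636280-149636308, minus strand): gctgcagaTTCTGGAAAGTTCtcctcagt

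The Hspe1 element ran from base -89 to base -72 of its start. The Hsph1 element lay after the annotated starts, from base 15 to base 27 of the nearer one, inside an exon of Hsph1. Exons of Dnajb6 and of Gm5129 covered the Dnajb6 stretch. A match of letters is a description of the reference sequence, and no binding was measured.

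**Figure D1:**
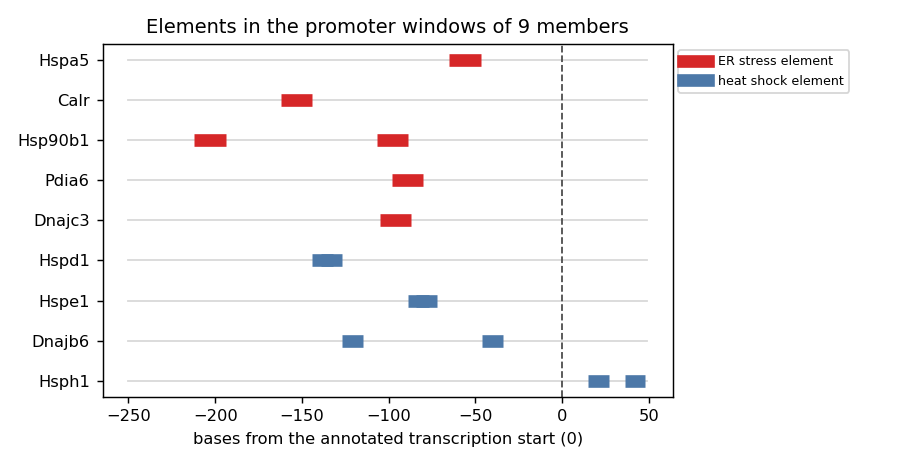
Positions of ER stress elements (red) and heat shock elements (blue) in the RefSeq promoter windows of the 9 members that hold one, in bases from the annotated transcription start on the x axis. The ER stress elements lie between bases -212 and -47, and Dnajb6 and Hsph1 each show 1 element drawn against 2 annotated starts.

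To compare genes with each other, each gene's mean normalised count was divided by the length of its exons (the union of all exons of the gene in GENCODE vM21) and is termed its level, in normalised counts per kb. Values per kb of coding sequence divide the same whole-gene count by the longest coding sequence. They are therefore raised most in genes with long untranslated exons. The median level of the 112 members was 589.6 per kb, against 146.8 per kb over the 10502 genes of the table with a known length. A member's median rank was the 81.9th percentile of all genes. Of the 112 members, 94 lay above the median of all genes and 36 lay in the highest 10% of genes, whereas 5 lay below the lower quartile of 31.7 per kb. The members made up 1.07% of the genes with a length and 1.72% of the summed mean counts. The 112 members were thus mostly abundant among the genes of the table, but their range was wide, from 17.0 per kb for Fkbp6 to 7583 per kb for Calr.

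**Figure D2:**
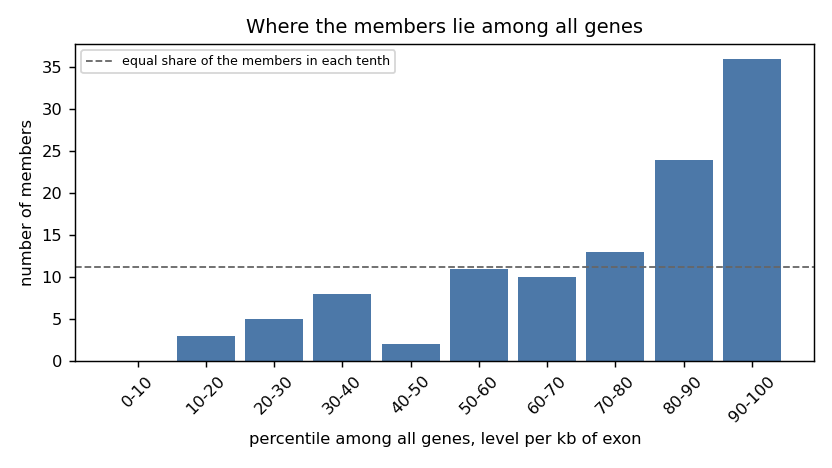
Number of members (y axis) in each 10% of all genes ranked by level per kb of exon (x axis, percentiles), with a dashed line at an equal share per bar. The highest 10% of genes holds 36 members and the lowest 10% holds 0.

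The labelled cell type was checked against markers. Of 7 Leydig cell markers, 6 were in the table (Star, Nr5a1, Cyp11a1, Hsd3b1, Cyp17a1 and Insl3), with levels from 21275 to 414861 per kb with the lowest of them at the 99.8th percentile. Lhcgr is not analysed here. Markers of other testis cells had levels of 20.2 and 82.2 per kb for Sertoli cells (Dhh and Amh), 92.0 for interstitial progenitors (Tcf21), 35.7 for endothelium (Esam) and 5.61 to 219.1 for 5 immune markers. Sox9, Nr2f2, Tek, Pecam1 and the 3 markers of peritubular myoid cells are not analysed here. Among germ cell markers, Acrv1 and Ddx4 had 17.2 and 61.1 per kb, but the spermatid genes Tnp1 and Prm1 had 2301 and 2623 per kb, at the 96.2nd and 96.8th percentiles. Dazl and Pou5f1 are not analysed here.

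The highest levels per kb of exon among the members belonged to genes of the ER. Calr, the calcium-binding lectin that retains unfolded glycoproteins, stood first at 7583 per kb. Hspa5, the ER's Hsp70 protein, followed at 5963 per kb, and P4hb, the main protein disulfide isomerase, at 5626 per kb. Hsp90b1 had 5365 per kb, and Pdia3, the isomerase that works with the lectins, had 4847 per kb. These 5 genes were the 5 highest members per kb of exon, all above the 98.6th percentile of all genes. Per kb of coding sequence Calr, Hspa5 and P4hb still led, but the mitochondrial Hspe1 (10111) came before Pdia3 (10042) and Hsp90b1 (8990). The other isomerases in the table were lower, with 1103 per kb for Pdia6 and 1014 per kb for Pdia4.

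The ER's J-domain proteins, which load Hspa5, were well below it. Dnajb11 had 887.5 per kb, Dnajc3 had 795.3 and Dnajb9, which also restrains the stress sensor Ern1, had 601.7. Hspa5 was 9.91 times Dnajb9 per kb of exon and 5.57 times per kb of coding sequence, so the size of that gap rested on the length used. Over 16 members known to reside in the ER, a list drawn up after the levels were seen, the median level was 900.7 per kb, all 16 lay above the median of all genes, and the lowest was Dnajc1 at 206.2 per kb. The 5 members with an ER stress element had levels from 795.3 to 7583 per kb with a median percentile of 98.8. The 91 members whose windows did not match had a median percentile of 81.2. For the heat shock element the median percentile was 74.4 for the 4 members with it and 83.2 for the 92 without. The percentiles of the 4 ran from 39.7 to 98.5. By median level the 4 were higher, with 1134 per kb against 635.4 for the 92.

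The mitochondrial chaperone genes Hspd1, Hspa9 and Hspe1 were also high, though mitochondrial chaperones and co-chaperones were not summarised as a class. Hspd1, the chaperonin, had 4505 per kb, and Hspa9, the Hsp70 protein of the matrix that pulls imported proteins through the inner membrane, had 3829 per kb. Hspe1, which closes the Hspd1 ring, had 2099 per kb. The order of Hspd1 and Hspe1 depended on the length: Hspd1 was 2.15 times Hspe1 per kb of exon but 0.685 times per kb of coding sequence. The short Hspe1 protein comes from a coding sequence far shorter than its exons. Of the 50-base windows of Hspd1's longest transcript, 44.8% also occurred in transcripts of other genes, mainly in 1 pseudogene.

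**Figure D3:**
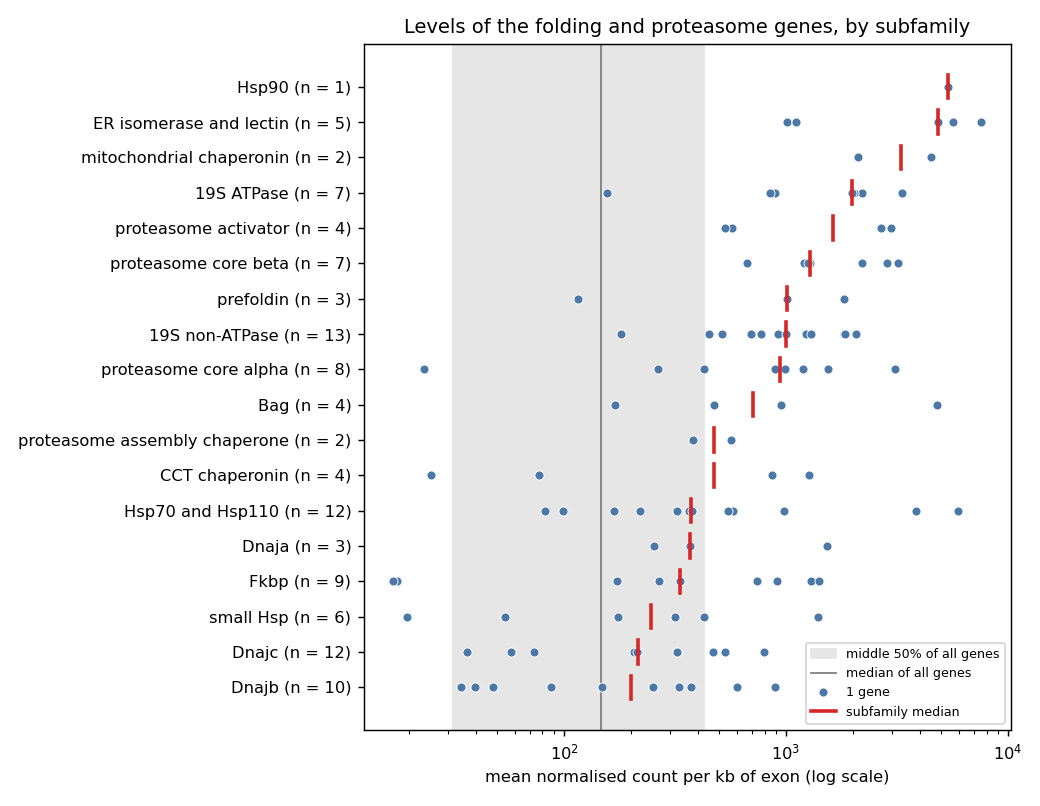
Level of every member in mean normalised counts per kb of exon (x axis, log scale), 1 point per gene and 1 line of points per subfamily, with red bars at subfamily medians and a grey band for the middle 50% of all genes. The subfamily medians run from 199.8 per kb for Dnajb to 5365 per kb for Hsp90b1, the only Hsp90 gene among the members. All lie above the all-gene median of 146.8 per kb.

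The sequence of a single 50-base read cannot place it on 1 gene where another gene has the same 50 bases. The other end of its pair, or its strand, may still do so. For each member the share of such windows was therefore computed from GENCODE transcripts. Matches on either strand counted, and copies elsewhere were not set apart from genes that overlap in place. The share was 0 for 54 members and at least 20% for 21 members, and it is given beside the levels named here of those 21. How reads with several matches were counted is not given in the sources used here, and the part of shared windows in any level was not tested.

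The 20S core is a stack of rings built from 7 alpha and 7 beta subunits, each present in equal numbers in the standard form. All 14 were in the table, and all 14 lay above the median of all genes. The beta subunit Psmb4 was highest at 3206 per kb, followed by the alpha subunit Psma6 at 3104 and Psmb2 at 2835. Of the 3 catalytic subunits, Psmb6 (caspase-like) had 2198 per kb, Psmb5 (chymotrypsin-like) 1278 and Psmb7 (trypsin-like) 1256. The lowest were Psma3 at 264.6 per kb and Psma5 at 426.9. The highest level was thus 12.1 times the lowest in a complex that uses its subunits in equal numbers.

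Psma3 and Psma5, the lowest of the core per kb of exon, shared at least 20% of their windows. Psmb3 and Psma1, which shared fewer, came next. Psmb5 also shared at least 20% but had 1278 per kb, above the core median of 1229. Psma3 shared 22.0% of its windows with other genes, Psma5 55.4%, Psma4 31.5% and Psmb5 57.1%, and the other 10 subunits shared at most 10.1%. The length of the coding sequence leaves out untranslated exons, but the count divided by it does not. Per kb of coding sequence, the 3 lowest subunits were Psma5 at 780.1, Psma3 at 1347 and Psmb5 at 1451. All 3 shared at least 20% of their windows, but so did Psma4, which at 3615 lay above Psmb3 and Psma1. The 10 subunits with few shared windows ran from 2502 (Psmb3) to 7898 (Psmb4) on that scale, a ratio of 3.16, against 10.1 for all 14. On the exon scale the ratio was 4.79 for the 10 subunits.

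**Figure D4:**
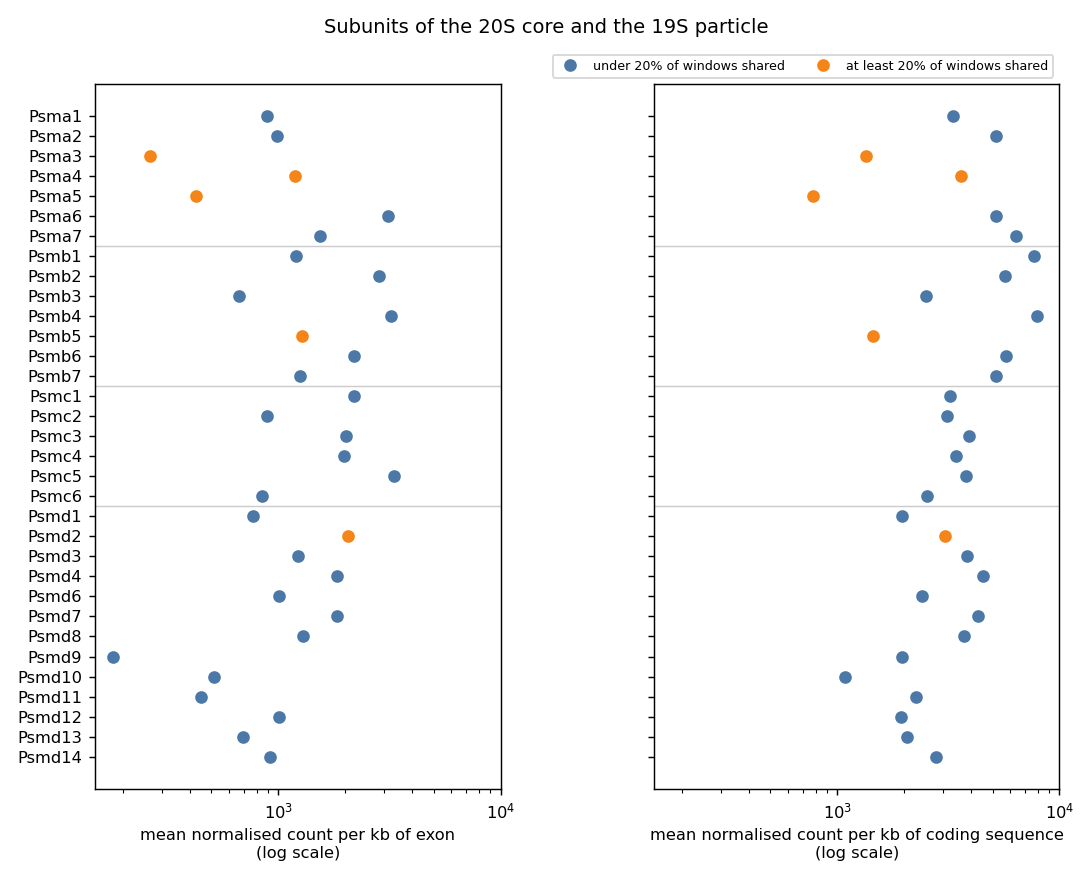
Level of 33 genes of the 20S core (Psma1 to Psma7, Psmb1 to Psmb7) and the 19S particle (Psmc, Psmd), in mean normalised counts per kb of exon (left) and per kb of coding sequence (right), both on log axes, with genes that share at least 20% of their 50-base windows with another gene in orange. On the right, Psmc1 to Psmc6 lie between 2543 and 3906, and the orange points Psma3, Psma5 and Psmb5 lie lowest in the core.

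The 19S particle opens the core and feeds it. Its 6 ATPases, Psmc1 to Psmc6, form a single ring. Their levels ran from 848.4 per kb for Psmc6 to 3312 per kb for Psmc5, a ratio of 3.90. Per kb of coding sequence they lay nearer to each other, from 2543 for Psmc6 to 3906 for Psmc3, a ratio of 1.54. None of the 6 shared over 17.6% of its windows. Psmc3ip, with 156.8 per kb and 27.1% of its windows shared, is taken by the rule for its symbol but encodes a factor of meiotic recombination and no subunit.

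Of the non-ATPase genes of the 19S particle, 13 were in the table and all lay above the median of all genes. Psmd2, the scaffold that binds ubiquitin shuttle proteins, was highest at 2058 per kb with 26.1% of its windows shared, and the ubiquitin receptor Psmd4 had 1830. The lowest was Psmd9 at 180.2 per kb. Psmd9 and Psmd10 (514.2 per kb) help to assemble the particle and are not part of the finished form. Without them the remaining 11 genes ran from 447.6 per kb (Psmd11) to 2058 per kb, a ratio of 4.60, and their ratio per kb of coding sequence was 2.33. Psmd4, Psmd10 and Psmd11 were named after their values were seen.

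Other caps of the core are the activators. Psme1, a subunit of the interferon-induced activator PA28, had 2683 per kb, 4.71 times its partner Psme2, which had 569.8 per kb. Psme2 lies 5911 bases from Psme1 on chromosome 14, and 59.3% of its windows were shared with Psme2b, a copy of Psme2 on chromosome 11. Psme2b itself was listed at 2970 per kb and shared 69.3% of its windows, so the levels of Psme2 and Psme2b are uncertain, and so is the ratio to Psme1. Psme4, the large activator known for the removal of acetylated histones, had 528.8 per kb. The assembly chaperones Psmg1 and Psmg4 had 564.0 and 380.4 per kb.

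The cytosolic chaperonin CCT folds actin and tubulin, which prefoldin hands to it. Of its ring subunits, Tcp1 had 1273 per kb and Cct3 had 866.3 per kb, a ratio of 1.47 that fell to 1.14 per kb of coding sequence. The other CCT genes of the table, Cct6b and Cct8l1, which are not part of the common ring, had 77.5 and 25.3 per kb. Prefoldin was represented by Pfdn5 at 1830 per kb, Pfdn6 at 1006 and Pfdn4 at 116.1. Pfdn5 shared 27.0% of its windows with other genes.

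Among the 12 Hsp70 and Hsp110 genes the median was 371.4 per kb, and Hspa5 of the ER and Hspa9 of the mitochondria stood apart from the rest. Hspa13, also an ER member, had 321.4 per kb, below that median. Apart from Hspa5 and Hspa9, the highest was Hspa12a, a distant relative of the family, at 978.8 per kb. Hspa8, the constitutive cytosolic Hsp70 gene, had 549.7 per kb, and Hspa5 was 10.8 times higher. Hspa8, however, shared 52.7% of its windows with 15 other genes. The stress-inducible neighbours Hspa1a and Hspa1b on chromosome 17 had 367.0 and 577.5 per kb and shared 66.3% and 62.3% of their windows, mostly with each other, so the split between them is uncertain. Hspa1l starts 546 bases from Hspa1a in the opposite direction and had 220.0 per kb, with 71.4% of its windows shared. The lowest was Hspa4l at 82.0 per kb, and Hsph1, the Hsp110 exchange factor with a heat shock element, had 168.1. The Hsp70 genes between the extremes were named after their values were seen.

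The J-domain genes of the classes Dnajb and Dnajc were low per kb of exon. The median was 199.8 per kb for 10 Dnajb genes and 214.4 per kb for 12 Dnajc genes, at the 56.4th and 58.9th percentiles, below the medians of all proteasome groups. That order depended on the length used, since per kb of coding sequence the Dnajc median was 872.4, above the 723.3 of the proteasome assembly chaperones. Their highest members were Dnajb11 and Dnajc3, the ER proteins named above, and their lowest were Dnajb13 at 34.2 per kb and Dnajc5g at 36.7 per kb. The 3 Dnaja genes, cytosolic partners of Hspa8, were Dnaja2 at 1529 per kb, Dnaja1 at 368.7 and Dnaja4 at 254.8. Windows were shared in 28.8% of Dnaja1 and 51.9% of Dnaja4, the latter with Wdr61, and in 0% of Dnaja2. Dnajb6, named for the heat shock element in its promoter, had 87.3 per kb with 42.8% of its windows shared.

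Bag1, an exchange factor of Hsp70, was the highest of the Bag co-chaperones. It had 4767 per kb of exon, the sixth highest level of all members on that scale, and shared none of its windows. Per kb of coding sequence it had 6038, below members such as Fkbp5, Hspa9 and Psmb4. Bag3, which guides misfolded proteins to autophagy together with the small heat shock protein Hspb8, had 944.0 per kb, and Bag5 and Bag4 had 471.3 and 170.2. Hspb8 was the highest of 6 small heat shock genes at 1398 per kb, which was 3.26 times the next, Hspb6, at 428.7 per kb. Hspb9, Hspb1 and Hspb7 had 315.1, 175.8 and 54.5 per kb, and Hspb2 was the lowest at 19.7. Hspb1 shared 51.6% of its windows with other genes, mainly a pseudogene, and Hspb2 shared 28.0%.

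The Fkbp genes encode prolyl isomerases that bind FK506, some of which assist steroid receptors. Fkbp8, an anchor in the outer mitochondrial membrane, was highest at 1407 per kb. Fkbp5, the co-chaperone of glucocorticoid and androgen receptors whose transcription those receptors raise, had 1289 per kb from long exons, and it was highest per kb of coding sequence at 8918, against 5271 for Fkbp8. The order of the pair thus depended on the length used. The 9 Fkbp genes had a median of 333.1 per kb, and Fkbp1b and Fkbp6 were the lowest members of all at 17.7 and 17.0 per kb. Fkbp5 and Fkbp1b were named after their values were seen.

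Some members are known mainly from germ cells of the testis. Over 13 such genes, a list drawn up after the levels were seen (Hspa2, Hspa1l, Hspb9, Dnajb3, Dnajb7, Dnajb8, Dnajb13, Dnajc5b, Dnajc5g, Psma8, Psmc3ip, Cct6b and Fkbp6), the median level was 77.5 per kb, at the 37.5th percentile, and 6 of the 13 lay above the median of all genes. The lowest was Fkbp6, required in meiosis, at 17.0 per kb, and the highest was Hspa2, the Hsp70 gene of spermatocytes, at 375.8 per kb. Psma8, the alpha subunit that takes the place of Psma7 in germ cells, had 23.4 per kb, while Psma7 had 1541. The germ cell genes Prm1 and Tnp1 stood at the levels given above, far over each of the 13. The part of germ cell RNA in these levels was not tested.

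Other genes of the same pathways were taken from a list of 43 regulators and partners that are not members, of which 32 had a level. Their median was 621.1 per kb, close to that of the members, and 27 of the 32 lay above the median of all genes. On the side of degradation, the ubiquitin-activating enzyme Uba1 had 9841 per kb, the autophagy receptor Sqstm1 8940 (20.4% of windows shared), and Nfe2l1, the transcription factor of proteasome genes, 4520. The ubiquitin gene Ubb had 4257 per kb with 55.4% of its windows shared. Among regulators of the ER stress response, Atf4 had 4978 per kb, Xbp1 832.0, Ern1 796.0, Atf6 465.1 and Eif2ak3 342.6. The heat shock factors were low in comparison, with 142.8 per kb for Hsf1 and 55.3 for Hsf2. Stip1, which links Hsp70 to Hsp90, had 2155 per kb, Ppib, an ER prolyl isomerase with 31.2% of its windows shared, had 2387, and Sel1l, of ER-associated degradation, had 1825. Ppia, the cytosolic prolyl isomerase, was listed at 74.2 per kb, with 20.8% of its windows shared among 116 other genes. The 11 genes without a level, Vcp among them, are not analysed here.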

How the data were processed

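RNA of 3 FLC and 3 ALC libraries was sequenced as paired 50-base reads. Reads were demultiplexed with CASAVA (1.8.2, per the submitters' processing notes), mapped with GemTools and counted per gene in-house on a GENCODE annotation of GRCm38. The authors left out genes with few reads and compared the stages with DESeq2. The deposited table lists genes with an adjusted p-value below 0.05. Its signal column, the authors' mean over the 6 libraries of counts divided by size factors, was the only column used. The other 5 columns hold the authors' own comparison of the stages (fold change, standard error, statistic and p-values) and were left aside. The intended fit needs counts per library, so it was not run and no stage comparison is given. Depth per library is unknown, and no error can be given. A deposited library sheet holds no measurement.

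Each mean was divided by gene length from GENCODE vM21, the same build but a later release. Symbols matched for 10205 genes, older symbols from RefSeq for 297, and 78 had no length. Shared windows were 50-base stretches of a member's longest transcript found in another gene's transcripts on either strand. Python 3.11.15, pandas 2.3.3, numpy 2.4.6 and matplotlib 3.10.9 were used, and the motif search and lengths were tested on simulated data. Members, lists and measures were chosen with earlier results of these data known. Named were each subfamily's highest and lowest member, every member of subfamilies of up to 8 genes, the 10 highest members, head-to-head neighbours and the listed pathway genes. Genes outside this rule are said to be so, and 2 listed genes are not reported here.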

Additional observations from a re-analysis of the deposited data

How the results depend on the processing

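No paired analysis was possible because no values per library were used. For the same reason the planned edgeR and DESeq2 fits, their normalization and filter alternatives and leaving out libraries were not run. The median percentile of the members stayed between 78.8 and 83.4 with the 2 other lengths, no division by length, a deposited mean of at least 10, and protein-coding genes alone, and it was 86.3 without the members that share at least 20% of their windows, an alternative chosen after seeing the data. The count above the median of all genes was 85 to 94, and it was 75 of the remaining 91 without those members. The values that follow changed by over 1.5 times. The median level was 1947 per kb of coding sequence and 2269 undivided. A coding sequence is never longer than a gene's exons, and undivided counts are not per kb. Median levels under these settings, those of subfamilies too, are thus on other scales. The ratio of the highest to the lowest level in the 19S ATPases was 1.54 per kb of coding sequence, 2.57 per kb of the longest transcript and 1.78 undivided. In the 19S non-ATPases it was 4.15 and 5.59 for the first 2 of these, in core and particle together 10.1 per kb of coding sequence, and in the 20S core 4.79 without subunits that share windows. Of the 18 subfamily median levels, 16 changed that far per kb of coding sequence, 15 undivided and 5 per kb of the longest transcript, with Fkbp at 1687, Dnajc at 872.4, Hsp70 at 703.3 and Dnajb at 481.2 per kb of coding sequence. Leaving out the highest member changed 5 of them that far: CCT (77.5), activators (569.8), ER isomerases and lectins (2975), prefoldin (561.3) and Bag (471.3). Without members that share at least 20% of their windows 4 changed: Dnaja (1529), mitochondrial chaperonin (2099), prefoldin (561.3) and small heat shock genes (371.9). Subfamily percentiles moved that far only undivided, for the small heat shock genes (31.0) and the assembly chaperones (41.8). With smaller changes, the small heat shock genes per kb of coding sequence (44.5) and Dnajb undivided (41.9) also fell below the median of all genes. With only the 250 bases before the start, 41 members instead of 45 held CCAAT, 3 instead of 4 a heat shock element, and 5 an ER stress element under both.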

Other observations

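The promoter windows of the members were rich in CpG. The median window held 21 CpG dinucleotides and 62.0% G and C among the 117 member windows, against 7 CpG and 52.7% over all 32851 windows, and the members ranged from 1 to 52 CpG. The TATA box (TATAAA, on the transcribed direction) was found in 5.13% of member windows and 8.32% of all, and its owners were Calr, Dnajc19, Hspb6, Psmb4, Psmd1 and Psmd6. TGACNNNGC, the core of the antioxidant response element that Nfe2l1 and its relatives bind, lay in 15.4% of member windows and 12.4% of all, on either strand. Among the proteasome genes it was present in Psmb5, Psmb6, Psmc6, Psmd9, Psmd12 and Psme4. These genes were named by the motif, after it was seen where it lay.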
